A study of Mus musculus with 6 samples.

Results

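The genes described here carry calcium and magnesium across the distal tubule of the kidney, or buffer calcium inside its cells. They were chosen by symbol in the deposited gene table. The choice named 6 genes, Trpm6, Trpv5, Pvalb, Slc12a3, Calb1 and Slc8a1, and the table, which holds 7340 genes, lists 4 of them. Slc12a3 is the sodium-chloride cotransporter that defines the distal convoluted tubule, and Slc8a1 is a basolateral sodium-calcium exchanger. Neither is listed, so their expression was not analysed here and no direction can be given for them. All 4 listed genes passed the filter on low values.

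Expression had been measured by RNA sequencing of whole kidney from wild-type mice after ischaemia-reperfusion injury (IRI), in which blood flow to the kidney is stopped and then restored. Both groups had IRI, and 3 of the 6 samples were also given MK-8617. This compound blocks prolyl hydroxylases, the enzymes through which cells with enough oxygen destroy hypoxia-inducible factor (HIF). The labels give no dose, age or time, the column names carry the tag 1d, and the treatment entries of treated replicates 2 and 3 name MK8618 and MK8619 in place of MK8617. Uninjured kidneys were not analysed here, so each value is relative to IRI alone. Nothing in the labels says that the samples of a group were separate animals, so p-values measure the spread between samples. Library totals ran from 16835541 to 19508497 reads.

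The distal convoluted tubule and the connecting tubule after it reabsorb the last adjustable part of the filtered calcium and magnesium. Magnesium enters the cell from the urine through the channel TRPM6, whose amount at the membrane is raised by epidermal growth factor. Calcium enters through the channel TRPV5, is carried across the cell by the buffer calbindin-D28k (Calb1), and leaves on the blood side through a sodium-calcium exchanger and a plasma membrane calcium pump. Parvalbumin (Pvalb), a buffer with EF-hand calcium sites, marks the first part of the distal convoluted tubule.

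HIF acts on DNA through short sequence cores, so start regions were searched for these cores and for other motifs. Those of the 3 genes that rose are printed, a choice made by their values. Whether HIF acts on these genes was not tested. Each line gives 250 bases before and 50 after a RefSeq transcription start, from GRCm38.p6, 5′ to 3′ on the strand of the gene. Capitals mark matches to the motifs searched.
Trpm6, chr19:18749480-18749779, plus strand: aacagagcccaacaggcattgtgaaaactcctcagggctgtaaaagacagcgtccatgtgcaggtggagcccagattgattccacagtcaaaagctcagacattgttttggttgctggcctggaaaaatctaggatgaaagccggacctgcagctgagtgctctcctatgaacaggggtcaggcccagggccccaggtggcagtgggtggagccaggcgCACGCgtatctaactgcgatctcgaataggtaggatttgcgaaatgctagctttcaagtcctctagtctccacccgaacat
Trpv5, chr6:41680674-41680973, minus strand: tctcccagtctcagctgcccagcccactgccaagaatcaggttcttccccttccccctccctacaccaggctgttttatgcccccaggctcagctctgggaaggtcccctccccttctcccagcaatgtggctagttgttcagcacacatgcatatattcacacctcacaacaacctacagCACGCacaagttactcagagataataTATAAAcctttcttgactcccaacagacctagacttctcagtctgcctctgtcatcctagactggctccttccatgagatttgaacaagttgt
Pvalb, downstream start, chr15:78204188-78204487, minus strand: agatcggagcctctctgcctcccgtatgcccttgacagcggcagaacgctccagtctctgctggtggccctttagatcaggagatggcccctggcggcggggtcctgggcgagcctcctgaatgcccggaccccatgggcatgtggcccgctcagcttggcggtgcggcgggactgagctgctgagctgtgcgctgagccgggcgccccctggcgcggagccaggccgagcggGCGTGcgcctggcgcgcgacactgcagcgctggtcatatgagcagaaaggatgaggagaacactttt
Pvalb, upstream start, chr15:78206351-78206650, minus strand: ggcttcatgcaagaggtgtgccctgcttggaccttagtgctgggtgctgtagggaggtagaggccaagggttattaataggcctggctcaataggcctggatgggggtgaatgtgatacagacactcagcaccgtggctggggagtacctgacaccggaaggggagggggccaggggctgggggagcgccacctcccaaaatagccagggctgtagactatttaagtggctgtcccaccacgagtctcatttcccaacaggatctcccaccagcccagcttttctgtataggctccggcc
No promoter was matched for Calb1. Of the HIF cores, ACGTG had no match in these 4 windows, on either strand. The other core, GCGTG, had 1 match each in Trpm6 (first base at -31 from the start), Trpv5 (-69) and the downstream start of Pvalb (-17), and none at the upstream start of Pvalb. Among 32851 promoter windows of the same length, 32.4% held GCGTG on either strand and 19.6% held ACGTG, so a match is a common event. A TATA box (TATAAA) lay at -43 in Trpv5, and 13.6% of windows hold one. The HNF1 motif GTTAAT (7.1% of windows) and the motif AAGGTCA of oestrogen-related receptors (4.72%) had no match in the 4 windows. Among the genes not listed, the window of Slc8a1 held GCGTG (-243) and that of Slc12a3 held neither HIF core. These matches describe letters and not binding. The Trpm6 window ends at 18749779, before the annotated gene start of 18749983 given below, so its position holds for the RefSeq start alone. The downstream Pvalb window had a GC content of 67.7% with 25 CpG dinucleotides, against 53% and 9 for Trpm6, 50.7% and 1 for Trpv5, and 58.3% and 5 for the upstream Pvalb start, where the median window had 52.7% and 7.

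Trpm6, Trpv5 and Pvalb rose with MK-8617, by 2.87-fold, 1.97-fold and 6.71-fold in the ratio of group means. Calb1 stood at 1.6-fold and did not pass the test. Levels are given first as normalised reads, which are the authors' gene counts divided by a size factor for each library, and every difference is on the log2(normalised reads + 1) scale, treated minus IRI alone. Of 4 members 3 were called higher at an adjusted p below 0.05 and 0 lower. Over all 6961 tested genes, 74.3% were called, 35.7% higher and 38.7% lower, and the table holds no gene whose p in the authors' comparison is above 0.0499. A call is thus common in this table. The same libraries had selected its genes, so a call is no independent evidence.

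Trpm6 (ENSMUSG00000024727, GRCm38 chromosome 19, 18749983 to 18892511, plus strand), the epithelial magnesium channel with a kinase domain, stood at 112, 126 and 201 normalised reads in the kidneys with IRI alone (replicates 1, 2 and 3). In the treated kidneys it stood at 474, 363 and 422, in the same order of replicates, which is kept throughout. The lowest treated kidney stood well above the highest kidney with IRI alone, so the groups did not overlap. Group means were 146 ± 48.2 and 419.8 ± 55.8 (SD, n = 3 per group). The difference was 1.55 ± 0.23 (SE, as for every later difference, 95% interval 1.04 to 2.07), with an adjusted p of 0.00162 in the limma test. It was larger than 95.5% of the differences of all tested genes. Trpm6 was called in 19 of 19 alternative settings, with differences of 1.29 to 1.81. In the authors' deposited table the log2 fold change is 1.52 (adjusted p = 5.62e-09).

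Trpv5 (ENSMUSG00000036899, chromosome 6, 41652173 to 41680769, minus strand), the apical calcium channel, had 280.2, 257 and 226 normalised reads with IRI alone. The treated kidneys had 623, 342 and 536. The IRI values lay close together while MK-8617 replicate 2 was much nearer to them than the other treated kidneys, and the groups did not overlap. Means were 254 ± 27.0 and 500.1 ± 144 (SD, n = 3 per group), a difference of 0.93 ± 0.22 (95% interval 0.45 to 1.42, limma adjusted p = 0.012). The call was lost without MK-8617 replicate 1 (0.75, adjusted p = 0.0543) and without MK-8617 replicate 3 (0.86, adjusted p = 0.0641), and it was made in 17 of 19 alternatives. The value in the authors' deposited table is 0.98 (adjusted p = 0.000157). Trpv6, the neighbouring and closely related channel gene, is not listed, and how reads shared between the paralogues were counted is not given in the sources used here.

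Pvalb (ENSMUSG00000005716, chromosome 15, 78191114 to 78206400, minus strand) was the least abundant of the 4 genes. Its recovered whole reads were 6, 4 and 13 in the IRI libraries and 72, 35 and 33 in the treated libraries. The exact Poisson 95% interval for the highest IRI library was 6.92 to 22.2 reads and for the lowest treated library 22.7 to 46.3, covering counting error only. The values with IRI alone were thus few reads each, and every treated library stood above them. In normalised reads the means were 7.26 ± 4.62 and 48.7 ± 21.7 (SD, n = 3 per group). The difference was 2.65 ± 0.50 (95% interval 1.52 to 3.78, limma adjusted p = 0.00494), above 99.2% of tested genes. It was called in all 18 alternatives that tested it, ranging from 2.12 with a pseudocount of 5 to 3.26, and a minimum mean of 5 CPM left it untested. The authors' deposited table has 2.75 for it (adjusted p = 2.4e-05).

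Calb1 (ENSMUSG00000028222, chromosome 4, 15881264 to 15908064, plus strand), the calbindin that ferries calcium through the cell, had 1390.4, 1509 and 1855 normalised reads with IRI alone. Treated kidneys had 3459.8, 1711 and 2446. MK-8617 replicate 2 was below IRI replicate 3, so the groups overlapped. Means were 1585 ± 241 and 2539 ± 878 (SD, n = 3 per group), with a difference of 0.63 ± 0.23 (95% interval 0.11 to 1.15, limma adjusted p = 0.0709). The interval lies above 0, but the p is not past the threshold after adjustment, while the authors' deposited table has 0.68 (adjusted p = 0.0108). A DESeq2 fit of the recovered reads also called Calb1 (0.68, adjusted p = 0.0157). That fit called 2606 higher and 2854 lower of all 6961 tested genes. Calb1 was at 0.03 (adjusted p = 1) once trends on transcript length and GC content were removed.

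**Figure D1:**
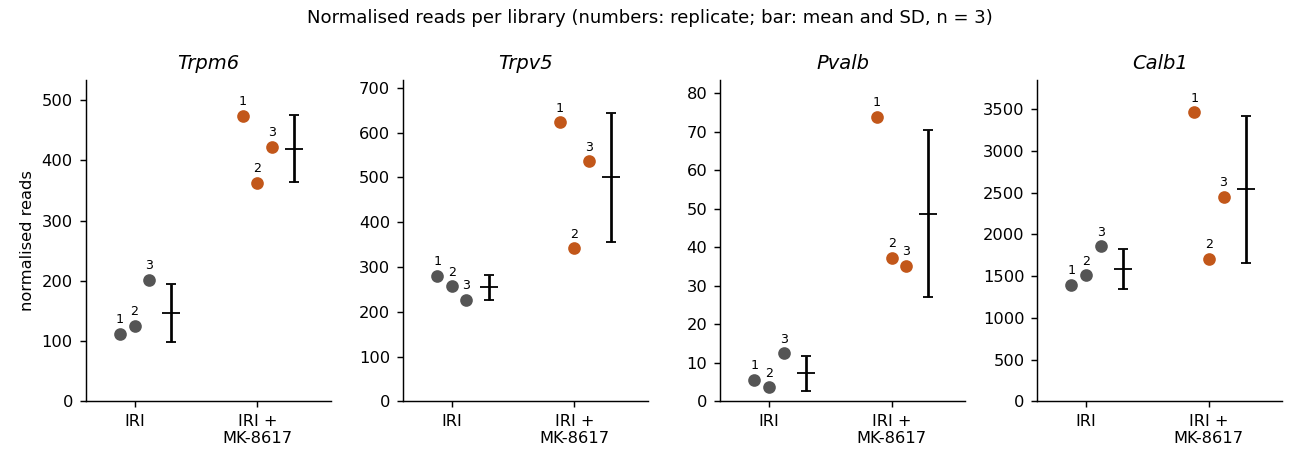
Normalised reads (vertical axes, starting at 0) of Trpm6, Trpv5, Pvalb and Calb1 in each library, with grey points for IRI, orange points for IRI with MK-8617, replicate numbers above the points, and the mean and SD of 3 libraries as a black bar. The groups are apart for Trpm6, Trpv5 and Pvalb, and MK-8617 replicate 2 (1711) lies below IRI replicate 3 (1855) for Calb1.

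The plot of normalised reads by library also shows how the libraries differ within a group. MK-8617 replicate 1 was the highest treated library for all 4 genes, and IRI replicate 3 the highest IRI library for Trpm6, Pvalb and Calb1 but the lowest for Trpv5. The coefficient of variation with IRI alone was 10.6% for Trpv5, 15.2% for Calb1, 33% for Trpm6 and 63.6% for Pvalb. With MK-8617 it was 13.3% for Trpm6, 28.8% for Trpv5, 34.6% for Calb1 and 44.5% for Pvalb. In 3 of the 4 genes the groups did not overlap, with treated higher, as in 44.8% of all tested genes (47.6% had no overlap with treated lower, 92.5% in either direction). The exact two-sided permutation test of a single gene gave p = 0.1 for Trpm6, Trpv5 and Pvalb, the smallest that 3 against 3 allows, and p = 0.2 for Calb1.

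Levels of different genes were compared as FPKM, in which reads are divided by the length of the gene and the size of the library. Calb1 was the most abundant, at 18.4 ± 2.72 FPKM with IRI and 29.1 ± 10.1 with MK-8617. Trpv5 followed at 4.42 ± 0.488 and 8.58 ± 2.48 FPKM, and Trpm6 at 1.26 ± 0.411 and 3.59 ± 0.481 FPKM. Pvalb was lowest, at 0.392 ± 0.248 and 2.6 ± 1.16 FPKM (SD, n = 3 per group). This order held in 6 of 6 libraries. With IRI alone no neighbours in the order overlapped. With MK-8617 the Pvalb values (1.88 to 3.93 FPKM) overlapped those of Trpm6 (3.09 to 4.05 FPKM), while the others did not overlap. Within the treated libraries the ratio of Trpm6 to Pvalb was 1.03, 1.55 and 1.92, and whether these levels differ was not tested.

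**Figure D2:**
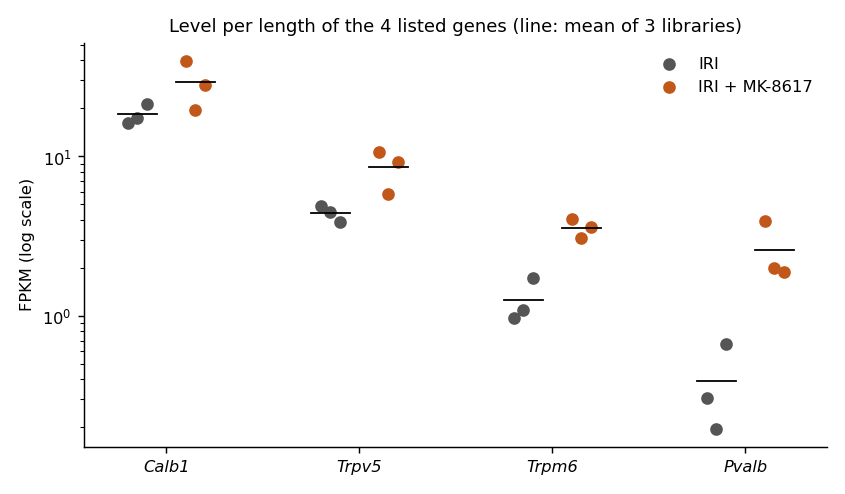
FPKM on a log axis for the 4 genes, ordered by level, with points for libraries and a line at the mean of 3. Calb1 is highest in every library, and the distance between Trpm6 and Pvalb is smaller with MK-8617 (3.59 against 2.6 FPKM) than with IRI alone (1.26 against 0.392 FPKM).

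Ratios between genes of one library do not depend on the scaling between libraries. The FPKM ratio of Pvalb to Calb1 was 0.019, 0.0112 and 0.0313 in the IRI libraries and 0.0993, 0.102 and 0.0668 in the treated ones. Pvalb was thus higher relative to Calb1 in every treated kidney. The ratio of Trpm6 to Calb1 was 0.0598, 0.062 and 0.0808 against 0.102, 0.158 and 0.129, again without overlap. The ratio of Trpv5 to Calb1 was 0.301, 0.254 and 0.182 against 0.269, 0.298 and 0.327, and those values overlapped. The ratio of Trpm6 to Trpv5, the magnesium to the calcium channel, overlapped too, at 0.199, 0.244 and 0.443 against 0.379, 0.529 and 0.393. The 6 pairs were tested as within-library differences of log2(normalised reads + 1), where the added 1 leaves some dependence on scaling for low values such as Pvalb. Of these pairs 4 had groups without overlap, each at an exact permutation p of 0.1 and a Benjamini-Hochberg adjusted p of 0.15. A p of 0.1 is the smallest that this test allows with groups of this size, so no pair could have passed the threshold. The test therefore cannot decide whether the genes of a pair differed in their response, and the ratios are given as a description.

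Transcript length moved with the differences across the table. The median difference was -0.88 among 898 genes with a principal transcript under 1000 nucleotides and 0.4 among 1595 genes of 4000 to 8000. Trpm6 has a principal transcript of 6509 nucleotides, Calb1 of 4222, Trpv5 of 3243 and Pvalb of 977. Pvalb thus rose although most transcripts as short were lower. With the length trend removed the differences were 1.33 for Trpm6 (adjusted p = 0.00419), 0.87 for Trpv5 (adjusted p = 0.021), 3.26 for Pvalb (adjusted p = 0.00272) and 0.43 for Calb1 (adjusted p = 0.329).

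**Figure D3:**
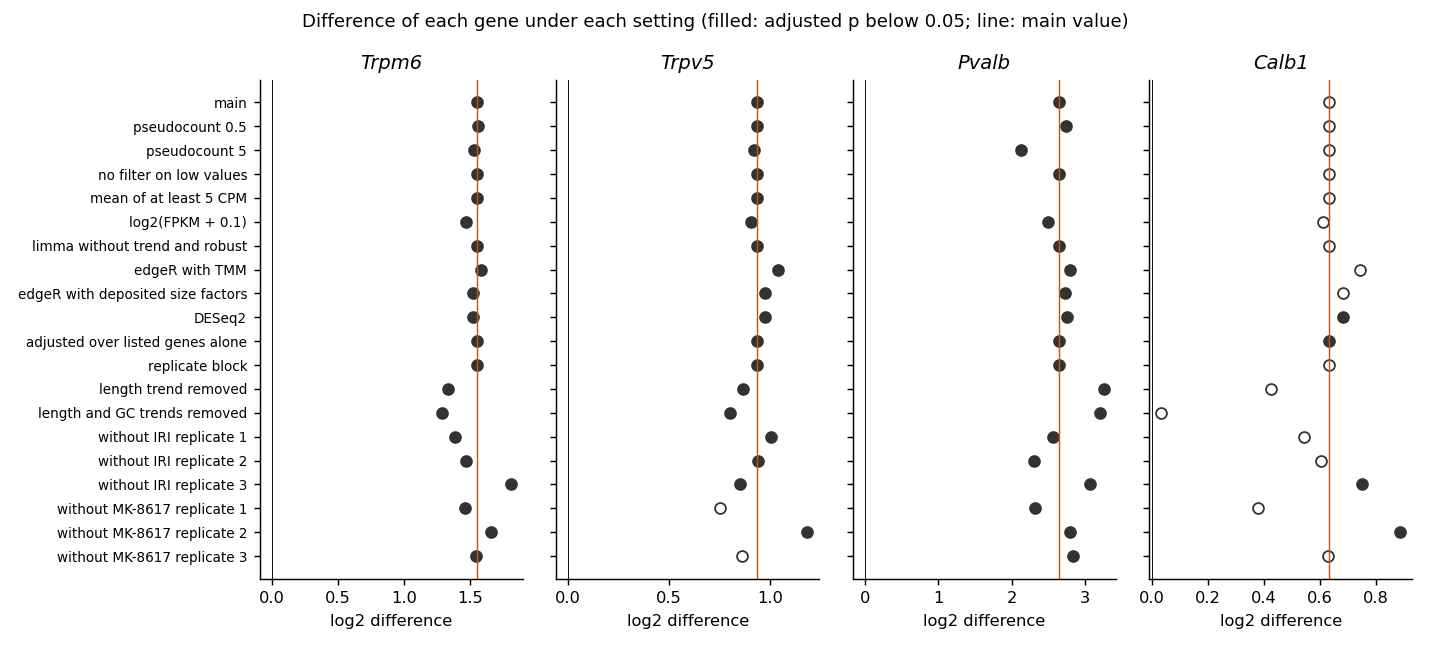
Log2 difference (treated minus IRI) of each gene under the main setting and each alternative, with filled points where the adjusted p is below 0.05 and a line at the main value. Trpm6 and Pvalb are filled throughout, Trpv5 is open without MK-8617 replicate 1 or 3, and Calb1 is open in most settings and lowest, at 0.03, where trends on length and GC content were taken out.

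Trpm6 was also read within a list of magnesium transporters and their regulators. The list has 31 symbols, of which Gnb2l1 is an older symbol of Rack1, and 20 were listed and tested. Of these 12 rose, Trpm6 among them, and 7 fell, where 35.7% of all tested genes were higher and 38.7% lower. The median was 0.46 against -0.31 for all tested genes. Egf, which encodes the growth factor that stimulates TRPM6, had 394, 230 and 449 normalised reads with IRI and 2155, 1139.8 and 1757 with MK-8617. Every treated kidney was far above the highest IRI value, and the difference was 2.24 ± 0.28 (limma adjusted p = 0.000803). Its receptor gene Egfr rose by 0.77 ± 0.12. Among magnesium transporters Slc41a1 rose by 0.82 ± 0.12 and Cnnm3, of a family of proteins of magnesium extrusion, by 0.83 ± 0.12. Slc41a3, of the same family as Slc41a1, was lower (-0.74 ± 0.21, limma adjusted p = 0.0264), a call made in 13 of 19 alternatives and lost on leaving out any library but IRI replicate 3. Ptp4a3, a phosphatase that binds CNNM proteins, rose by 0.89 ± 0.14. Its relative Ptp4a1 (1.46 ± 0.43), at 8.63 to 61.7 normalised reads, was called in 11 of 18 alternatives and not without IRI replicate 3 or any 1 of the treated replicates. Nor was Ptp4a1 called with the length trend removed. Cnnm1 (0.88 ± 0.25) was called in 11 of 19 alternatives, and leaving out any library but IRI replicate 3 lost it. Removal of the length trend also lost the Cnnm1 call. Trpm7, the widely expressed relative of Trpm6, rose by 0.35 ± 0.09, from 1254 ± 28.9 to 1595 ± 41.9 normalised reads, and was not called without IRI replicate 1 or 2 or treated replicate 2, nor with the length trend removed (0.13, adjusted p = 0.464), and it stood at -0.06 once GC content was also taken out.

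Members of the magnesium list that fell include claudins of the thick ascending limb, where magnesium passes between cells. Cldn10 had a difference of -1.94 ± 0.30 and Cldn19 of -1.06 ± 0.17. Fxyd2, the gamma subunit of the sodium pump, had 29644 ± 1632 normalised reads with IRI and 15941 ± 1944 with MK-8617, a difference of -0.90 ± 0.12. Pcbd1, a cofactor of HNF1 transcription factors, was at -0.71 ± 0.12. Nipa1, a magnesium transporter gene, was at -0.89 ± 0.22 and was not called without replicate 1 of either group. The transcripts of Fxyd2, Pcbd1 and Cldn19 are 632, 789 and 924 nucleotides long. With the length trend removed Fxyd2 (0.04, adjusted p = 1) and Pcbd1 (0.04, adjusted p = 1) turned direction, and Cldn19 (-0.42, adjusted p = 0.248) was no longer called. Over the whole list 6 of 20 members were then higher and 3 lower, beside 1988 higher and 1943 lower of all 6961 tested genes in that setting. Leaving out IRI replicate 2, treated replicate 1 or treated replicate 3 put the number higher at 7.

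Of 28 calcium transport and hormone genes 11 were listed and tested, with 3 higher (Trpv5 among them), 3 lower and a median of 0.44. Neither count is above the share of all tested genes, 35.7% higher and 38.7% lower. Besides Trpv5, Fgfr1, a receptor for FGF23, rose by 0.64 ± 0.10. Atp2b1, the plasma membrane calcium pump, rose by 0.44 ± 0.12 (limma adjusted p = 0.0297), a call made in 11 of 19 alternatives, not without IRI replicate 1 or 2 or treated replicate 1 or 3, and at 0.11 once length and GC trends were removed. Anxa2, an annexin that with S100a10 binds TRPV5, fell (-1.64 ± 0.15), and S100a10 fell by 0.51 ± 0.16, a call made in 8 of 19 alternatives, lost without IRI replicate 1 or 3 or treated replicate 2 or 3, and turned in direction with the length trend removed (0.37, adjusted p = 0.127). Cyp24a1, the enzyme that breaks down active vitamin D, had 906, 4867 and 1081 normalised reads with IRI against 286, 324 and 672 with MK-8617, and IRI replicate 2 stood far above the rest. Its difference of -2.08 ± 0.66 was not past the threshold (adjusted p = 0.0569). Without IRI replicate 2 it was smaller, -1.32, and past the threshold (adjusted p = 0.0296), as it was without IRI replicate 1 (-2.53, adjusted p = 0.0456), and it was called in 8 of 19 alternatives, among them DESeq2 and both edgeR fits. Cyp27b1, the enzyme that makes active vitamin D, was at 0.86 ± 0.30 (adjusted p = 0.0611) and was called in 4 of 19 alternatives, among them those without IRI replicate 3 (1.00) and without treated replicate 1 (1.17). Kl, the FGF23 co-receptor, was at 0.51 ± 0.23 (adjusted p = 0.164), and at 0.18 without IRI replicate 3, the library with its lowest value. The number of members higher was 1 without MK-8617 replicate 3 and 5 without IRI replicate 3, which also put the median at 0.18.

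Of 30 salt transport genes of the distal nephron 17 were listed and tested, with 3 higher and 10 lower and a median of -0.58, beside 35.7% higher and 38.7% lower over all tested genes. The difference from the other lists was not tested. Ppp1r1a, a phosphatase inhibitor of the distal convoluted tubule, fell from 1202 ± 255 to 519 ± 83.7 normalised reads (-1.20 ± 0.18). Bsnd, the subunit of basolateral chloride channels, fell by 1.11 ± 0.18. Kcnj1, the potassium channel ROMK, had a difference of -0.76 ± 0.19 and was not called without IRI replicate 1 or MK-8617 replicate 3. Nr3c2, the mineralocorticoid receptor gene, was at -0.70 ± 0.22, a call made in 10 of 19 alternatives and lost on leaving out any 1 library. Nedd4l, a ubiquitin ligase that limits sodium transport, rose by 0.87 ± 0.11. Kcnj10, the basolateral potassium channel that the cotransporter depends on, rose by 0.52 ± 0.15, a call made in 11 of 19 alternatives. The call was lost without IRI replicate 2 or 3 or treated replicate 1 or 3, and with the length trend removed. The number lower was 5 with plain limma or when IRI replicate 1 was left out and 4 for treated replicate 3, and the number higher was 1 when IRI replicate 2, treated replicate 1 or treated replicate 3 was left out. Some genes stand in more than one of these lists, among them Fxyd2 and Kcnj10. Kcnj1 is also among the lower markers of the thick ascending limb given below, so this list is not of the distal convoluted tubule alone.

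**Figure D4:**
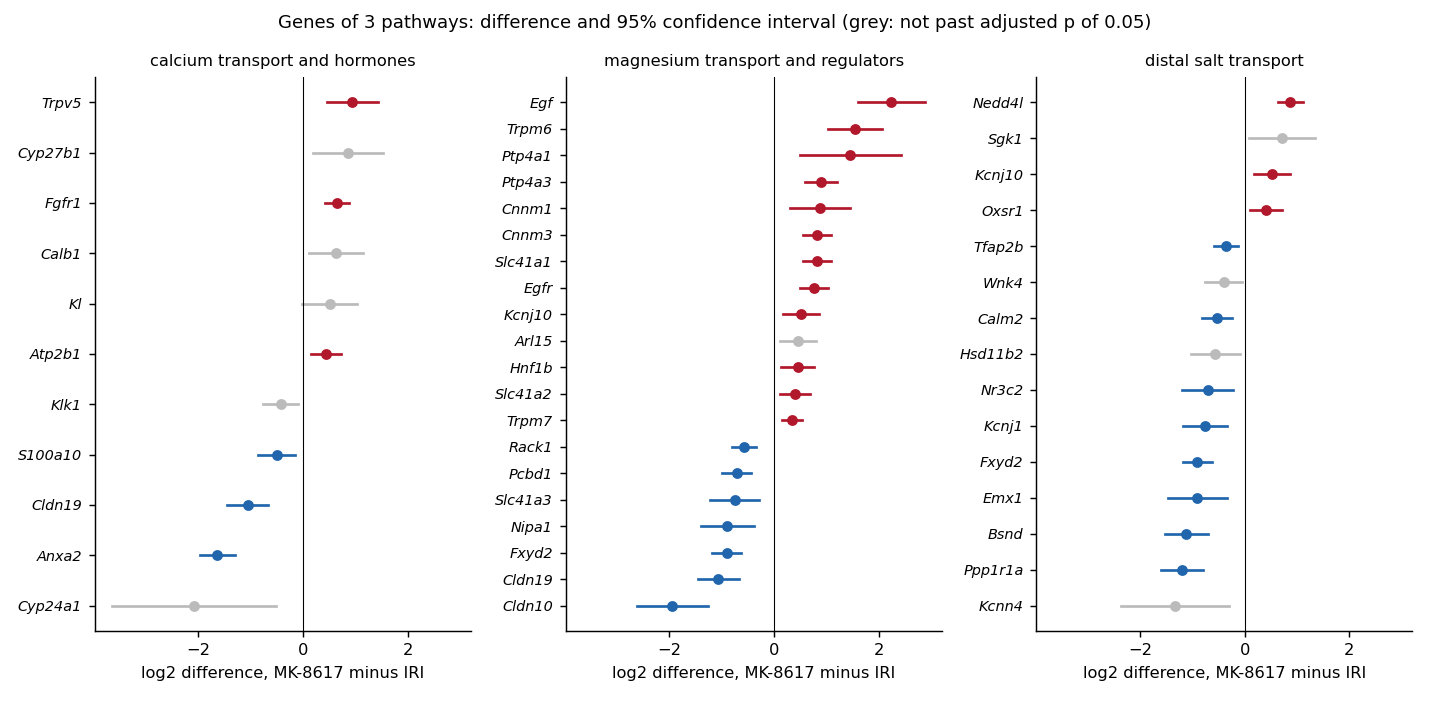
Log2 difference (treated minus IRI, horizontal axes) with its 95% confidence interval for tested genes of the calcium, magnesium and salt transport lists that are reported here, red for called higher, blue for called lower and grey for not past the threshold. Egf (2.24) and Trpm6 (1.55) lead the magnesium list, and Ppp1r1a (-1.20) and Bsnd (-1.11) are the lowest of the called salt transport genes drawn.

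Markers of the segments around the 4 genes were read beside them, though the lists hold the 4 genes themselves. Of 10 distal convoluted tubule markers 4 are listed, and Pvalb, Egf and Trpm6 rose while the transcription factor gene Emx1 fell (-0.90 ± 0.25, called in 13 of 19 alternatives, not without IRI replicate 1 or 2 or treated replicate 2 or 3). Over all tested genes 35.7% were higher and 38.7% lower. The defining marker Slc12a3 is not listed. Apart from Pvalb and Trpm6 themselves the listed markers are Egf, which is also a thick ascending limb marker, and Emx1, which went the other way, so no listed marker of this segment alone, other than these genes, rose. The summed level of the 4 was 9.99 to 12.8 FPKM with IRI and 14.4 to 23.6 FPKM with MK-8617. That sum includes Pvalb and Trpm6, so it is no separate reading of the segment. Of its other parts, mean Egf went from 1.78 to 8.30 FPKM and mean Emx1 from 7.54 to 3.94 FPKM. Of 8 connecting tubule markers 5 are listed, Trpv5 and Atp2b1 rose, and Calb1, Hsd11b2 and Klk1 did not pass the test. That 2 of 5 rose is near the share of all tested genes that were higher (35.7%). Of 10 thick ascending limb markers 7 are listed, with 1 higher (Egf) and 5 lower, beside 38.7% lower over all tested genes. Slc12a1, the sodium-potassium-chloride cotransporter of that limb, fell from 3421 ± 1025 to 1021 ± 116 normalised reads (-1.70 ± 0.21), while Umod, its most abundant secreted protein, was at 0.46 ± 0.25 (adjusted p = 0.282), at 0.21 without IRI replicate 2 and at 0.70 without treated replicate 1. No listed marker of these 3 segments was at 0 in any library. In whole tissue, more cells of a type and more RNA per cell cannot be told apart.

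**Figure D5:**
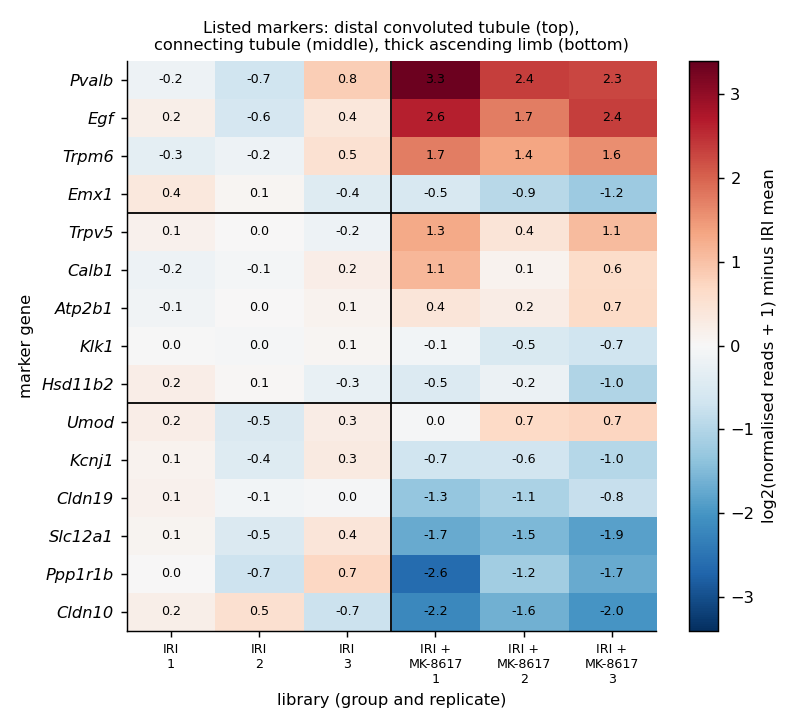
Log2(normalised reads + 1) minus the IRI mean for the listed markers of the distal convoluted tubule, connecting tubule and thick ascending limb (rows) in each library (columns), red above and blue below the IRI mean, with the value in each cell. Pvalb, Egf and Trpm6 are red in all 3 treated libraries, and Slc12a1, Ppp1r1b and Cldn10 are blue in all 3.

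Pvalb is also a gene of fast skeletal muscle and of inhibitory neurons, so markers of both were read. Of 8 muscle markers 1 is listed, Acta1, with 7.57, 5.47 and 0.959 normalised reads with IRI and 0, 0 and 1.06 with MK-8617, and it was below the filter and not tested. Of 6 neuronal markers 1 is listed, Tubb3, which fell (-1.90 ± 0.58), a call made in 11 of 18 alternatives and lost without IRI replicate 1 or 2 or treated replicate 1 or 2. Of 13 proximal tubule markers 4 were tested, with Cyp2e1 and Slc22a8 higher (35.7% of all tested genes were), 0 lower, and Slc27a2 (1.35, adjusted p = 0.0532) and Slc5a2 (0.73, adjusted p = 0.0521) not past the threshold. Slc27a2 was called on leaving out any 1 of the IRI libraries (0.72 without replicate 3), and Slc5a2 without IRI replicate 2 (1.02). The 4 tested markers had a summed level of 157 to 434 FPKM with IRI and 867 to 928 FPKM with MK-8617. Slc27a2, not past the threshold, was the largest part of that sum in every library. It stood at 298, 316 and 82.8 FPKM with IRI and at 522, 486 and 489 FPKM with MK-8617. Macrophage markers were lower in 6 of 7 tested (of 8), beside 38.7% of all tested genes, with summed levels of 100.2 to 198 and 37.4 to 49.7 FPKM. The part of these cell types in the differences of the 4 genes was not tested.

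The genes whose profiles over the 6 libraries were most like each member were found by the root mean square difference of log2 values from the IRI mean, among 5721 candidates. For Trpm6 the nearest was Sox9 (0.12), a transcription factor gene with a difference of 1.56 ± 0.21. It also stands in the list of injured proximal tubule markers, where it was the 1 higher of 7 tested (of 9) and 4 were lower, among them Havcr1 (-1.49 ± 0.11) and Clu (-0.93 ± 0.13). Over all tested genes 35.7% were higher and 38.7% lower. Next were the glucose transporter gene Slc2a1 (0.149), Fosb, Mir17hg and Ednrb. For Pvalb the nearest were Pdk4 (0.386), Egf (0.451), Depp1, Plin2 and Hpd, at larger distances. For Trpv5 they were Tmem170 (0.158), Nr4a1 (0.16), Peg13, Ccng2 and Auts2, and for Calb1 Abca8b (0.131), Sema4c, Klhl21, Tle1 and Tiparp. Likeness over 6 libraries describes these libraries alone.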

How the data were processed

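RNA of 6 kidney samples was sequenced, and samples were grouped by title. The software named is CASAVA 1.8, fastp, the aligner HISAT2 2.0.5, the read counter featureCounts 1.5.0-p3 and the test DESeq2 1.20.0, per the submitters' processing notes. Those notes name GRCh38 (hg38), while the deposited identifiers are of mouse, and 7338 of 7340 matched GENCODE M21 (GRCm38). The main deposited values are a signal, in that the authors scaled each library's gene counts by its own size factor. Whole reads came back for 100% of values within 0.001, and equalled the deposited raw count of IRI replicate 3, the library that has one, in 7340 genes. FPKM was taken as deposited. From the authors' test the table has a log2 fold change, a deposited p-value and its adjusted form, and no listed p exceeds 0.0499. Genes outside the table were not analysed here.

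The main test was limma 3.58.1 (trend, robust) on log2(normalised reads + 1) in R 4.3.3, after filterByExpr of edgeR 4.0.16 on recovered reads, which left 6961 genes and removed 379. P-values were adjusted by Benjamini-Hochberg over 18811 genes, the number the deposited adjusted p-values imply, at a threshold of 0.05. The fit estimated spread from listed genes alone, which the authors' test of the same libraries had selected. Its p-values may therefore be too small, and the wider adjustment does not mend this. The test was first checked on simulated counts, which had no such selection. Exact permutation tests used scipy 1.17.1. A floor of 3 reads is 0.154 to 0.178 CPM. Alternatives changed the pseudocount, filter, unit, tool (edgeR on recovered reads, DESeq2 1.42.0), adjustment, block, length and GC trends, or left out 1 library. The 4 genes, the gene lists and the tests were chosen with earlier results of these data known. Named genes were the 4 listed genes, tested members of the calcium, magnesium and salt transport lists (up to 10 each, largest called differences first), up to 3 listed markers per cell type by FPKM, and for each gene the 5 nearest profiles (mean of 50 normalised reads or more, no predicted symbol). Slc41a1, Slc41a3, Egfr, Slc5a2, Trpm7, Pcbd1, Kcnj10, Ppp1r1b, S100a1 and S100a6 lie outside this rule and were chosen after their values were seen. Some list members are counted with their list but not reported here. The labels name no batch. The 13 empty columns of the table were not used.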

Additional observations from a re-analysis of the deposited data

How the results depend on the processing

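Every alternative kept the direction of Trpm6, Trpv5, Pvalb and Calb1, and the calls of Trpm6 and Pvalb were kept wherever they were tested. Leaving out 1 library gave 0.75 to 1.19 for Trpv5 (main 0.93, not called without MK-8617 replicate 1 or 3) and 0.38 to 0.89 for Calb1 (main 0.63, called without IRI replicate 3 or MK-8617 replicate 2). Calb1 was also called with DESeq2 on recovered reads (0.68) and with adjustment over the listed genes alone (0.63), so 4 genes were then called. Of all 6961 tested genes DESeq2 called 2606 higher and 2854 lower. Adjustment over the listed genes alone called 3270 higher and 3497 lower, which is nearly every gene, so a call there says little. Leaving out 1 library, 1488 (MK-8617 replicate 1) to 2446 of all genes were called higher, and 1618 without MK-8617 replicate 3. For the calcium list 1 to 5 members were then higher and 2 to 4 lower, with medians of 0.18 to 0.53. For the magnesium list 7 to 9 were higher, with medians of 0.41 to 0.53, and for the salt transport list 1 to 3 were higher and 4 to 9 lower. With DESeq2, and with adjustment over listed genes alone, the calcium list had 5 higher and 5 lower of 11 tested. Most of all tested genes were called in both settings, as given above. The salt transport list had 1 higher with FPKM, with plain limma (5 lower), and after removal of the length trend or of both trends. With the length trend removed the magnesium list had 6 higher, 3 lower and a median of 0.33, and with both trends removed 2 lower and a median of 0.28, and the calcium list then had a median of 0.19. Those trends also moved the median of all genes from -0.31 to 0.08 and 0.01, so relative to it Trpm6 was at 1.87, 1.25 and 1.27, Trpv5 at 1.25, 0.79 and 0.79, Pvalb at 2.96, 3.18 and 3.19 and Calb1 at 0.95, 0.35 and 0.02. The cause of these shifts was not tested.

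The replicate numbers were not taken as pairs, since the deviations of same-numbered libraries correlated at 0.0206, 0.116 and 0.115, though each library correlated best with its own number. With the replicate block Trpm6 was at 1.55, Trpv5 at 0.93, Pvalb at 2.65 and Calb1 at 0.63, and 3 of the 4 genes were called, as without it. At 4 to 13 reads per IRI library, Pvalb is the gene that depth limits most.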

Other observations

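Among 10 genes of calcium-binding proteins with EF-hand sites 4 are listed, Pvalb, Calb1, S100a6 and S100a1. S100a6 fell from 12128 ± 2522 to 1276 ± 163 normalised reads (-3.23 ± 0.17) and was called in 19 of 19 alternatives. S100a1 fell from 5760 ± 254 to 2580 ± 419.7 normalised reads (-1.17 ± 0.13, limma adjusted p = 0.000504), though it was at -0.28 (adjusted p = 0.0736) with the length trend removed.

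Intercalated cell markers were lower in 4 of 6 tested (of 8) and higher in 1, where 38.7% of all tested genes were lower and 35.7% higher. Atp6v1g3, a proton pump subunit, fell from 1491 ± 461 to 608 ± 96.9 normalised reads (-1.26 ± 0.20). Slc4a9, a transporter gene, rose from 1267 ± 159 to 4069 ± 872 (1.67 ± 0.16). Slc26a4, in the same list, was at -0.45 ± 0.17 and did not pass the threshold (limma adjusted p = 0.0836). Of 9 principal cell markers 2 were tested, and Fxyd4 fell by 1.12 ± 0.20 while Hsd11b2 was at -0.56 ± 0.21 (adjusted p = 0.0757).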
